A study of Homo sapiens with 6 samples.

Results

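The 10 genes described here are transcription factors that set up and hold the muscle programme, together with their partners and inhibitors: MYOD1, MYOG, MYF5 and MYF6, the 3 MEF2 genes MEF2A, MEF2C and MEF2D, TCF12, ID1 and ID3. They were taken by name from the 35580 genes joined in the transcript tables, with earlier results of these data known. The tables come from Rh30, a cell line of alveolar rhabdomyosarcoma that carries the PAX3-FOXO1 fusion gene. The study compared 3 control libraries with 3 siDDX5 libraries, in which DDX5, an RNA helicase also known as a coactivator of MYOD1, was knocked down. All 6 libraries were made from poly(A)-selected RNA of this single line with a stranded kit, and they share the fusion. The labels name no dose, time or control reagent.

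MYOD1, MYF5, MYOG and MYF6 are basic helix-loop-helix proteins that bind E-box sequences as dimers with E proteins, of which TCF12 (also HEB) is one. ID1 and ID3 hold a helix-loop-helix but no DNA-binding region, so they tie up E proteins and keep them from the myogenic factors. MEF2 proteins bind AT-rich sites beside E boxes and act together with the myogenic factors, and splicing of short exons is known to tune how strongly they activate muscle genes. Rhabdomyosarcoma cells are known to express MYOD1 and MYOG while they keep dividing.

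The exons that carry the splicing results below are short, and each is printed here because the shares of transcripts with and without it are compared between the groups. Capitals mark the alternative exon and lower case the 30 bases of the spliced transcript on either side. All are from the GENCODE release 29 transcripts (GRCh38), read 5′ to 3′ on the strand of the gene. The MEF2 exons lie at chr15:99703362-99703385 (plus strand), chr5:88730211-88730234 (minus strand) and chr1:156476494-156476514 (minus strand), and the TCF12 exon at chr15:57252421-57252492 (plus strand). All 4 are coding.
MEF2A 24-base exon: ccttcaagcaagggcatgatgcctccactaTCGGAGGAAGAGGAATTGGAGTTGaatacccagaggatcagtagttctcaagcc
MEF2C 24-base exon: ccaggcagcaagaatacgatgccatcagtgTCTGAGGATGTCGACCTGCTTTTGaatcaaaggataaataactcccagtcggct
MEF2D 21-base exon: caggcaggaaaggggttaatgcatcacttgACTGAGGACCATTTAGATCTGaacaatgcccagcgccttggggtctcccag
TCF12 72-base exon: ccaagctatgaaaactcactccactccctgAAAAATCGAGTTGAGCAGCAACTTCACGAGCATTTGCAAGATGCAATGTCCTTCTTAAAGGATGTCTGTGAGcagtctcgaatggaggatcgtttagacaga

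The MEF2 exons are the same element in 3 paralogous genes, known as the β exon. Their lengths are 24, 24 and 21 bases, or 8, 8 and 7 codons, so including one leaves the reading frame as it is. The longest run of bases that all 3 exons share is GAGGA, and it begins at the fourth base of each. The TCF12 exon of 72 bases adds 24 codons.

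The libraries held between 18202402 and 26156858 estimated counts, and the 3 siDDX5 libraries were the shallowest. A floor of 3 counts corresponded to 0.115 to 0.165 CPM, the counts of a gene scaled to a common library total. The knocked-down gene, DDX5, stood at 1352, 1434 and 1137 CPM in control replicates 1 to 3 and at 549, 504 and 396 CPM in siDDX5 replicates 1 to 3 (log2 fold change -1.44, adjusted p = 0.011, edgeR). Of 10 markers of alveolar rhabdomyosarcoma and myoblasts, 7 reached a mean of 1 TPM, a measure scaled for transcript length, among them the muscle filament gene DES at 401 to 589 TPM and the receptor gene FGFR4 at 184 to 231 TPM. TFAP2B, a target of the fusion protein, was listed at 0 in all libraries. Of the 5 epithelial markers 0 reached 1 TPM, of 4 endothelial and of 5 blood markers 1 each, and of 6 fibroblast markers 4. These 4 were THY1 at 67.8 to 90.3, COL1A1 at 14.5 to 18.4, PDGFRB at 5.63 to 14.5 and DCN at 0.771 to 3.06 TPM. The summed markers of rhabdomyosarcoma ranged from 788 to 1025 TPM in control and from 766 to 815 TPM in siDDX5 libraries, and those of fibroblasts from 92.7 to 118.7 and from 104.6 to 123.1 TPM. The part of these markers in the results below was not tested.

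Because TPM corrects for length, the genes can be set in order on that scale. The E protein gene TCF12 was the highest in control libraries at 173.0 ± 3.95 TPM (SD, n = 3), followed by MYOD1 at 139.9 ± 26.8, MYOG at 118.5 ± 51.0, ID3 at 97.9 ± 11.8 and ID1 at 77.4 ± 6.39 TPM. MEF2C stood at 73.3 ± 16.8, MEF2A at 52.5 ± 4.81, MYF5 at 23.4 ± 9.07 and MEF2D at 13.3 ± 0.664 TPM. Neighbours in this order whose libraries overlapped were MYOD1 with MYOG, MYOG with ID3, and ID1 with MEF2C. The order of the group means was the same in siDDX5 libraries, from 136.6 ± 28.3 TPM for TCF12 to 7.30 ± 1.01 TPM for MEF2D. For 2 of these levels the annotation matters. MEF2C has 15 listed transcripts of at most 200 bases, which took 13.3% to 47.0% of its TPM on 0.128% to 0.793% of its counts, and its protein-coding transcripts alone reached 42.3 ± 10.8 TPM in control and 28.96 ± 10.9 TPM in siDDX5 libraries. ID3 is listed on the primary assembly and again outside it, and 50% of its TPM was assigned to the second copy, so both were summed.

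**Figure D1:**
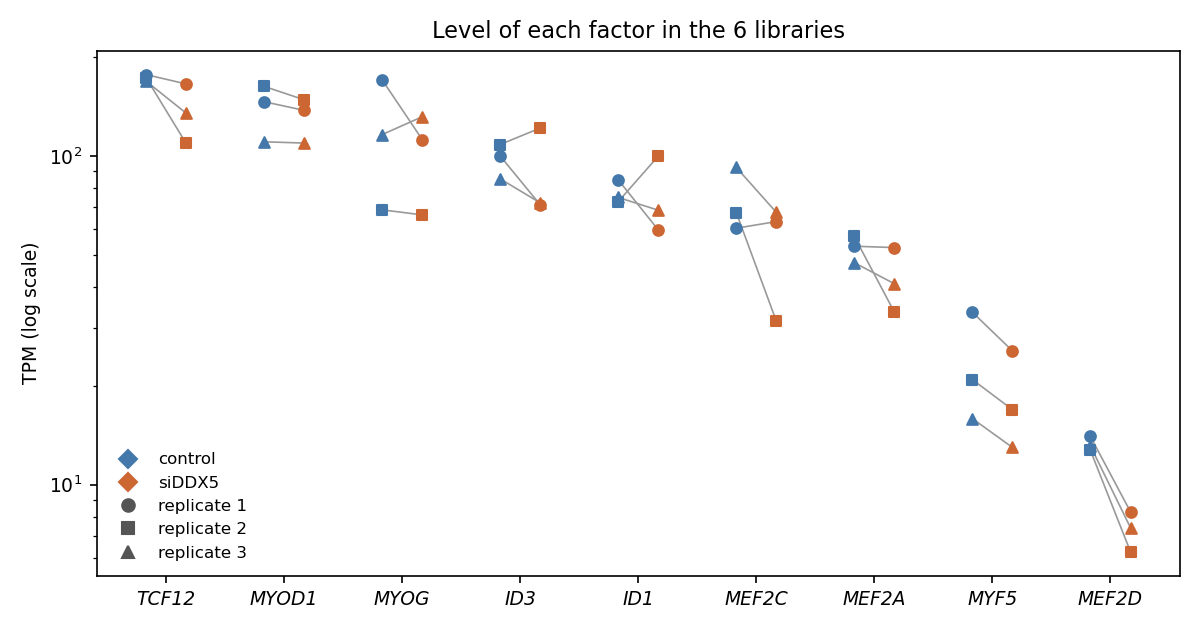
TPM (log scale) of 9 of the 10 genes in each library, with control libraries in blue and siDDX5 libraries in orange, marker shapes for replicates 1 to 3, and grey lines joining libraries of the same number. MYF6 is left out because it was listed at or near 0. All 3 siDDX5 libraries lie below all 3 control libraries for MEF2D and TCF12.

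Differences between the groups were tested on the estimated counts per gene with the quasi-likelihood test of edgeR, and a call required an adjusted p under 0.05 (Benjamini-Hochberg, over 15223 genes). Of the 10 factors, 9 passed the filter on low counts and 0 were called, with 2 (MEF2D and TCF12) at an unadjusted p under 0.05. Over all genes 0.164% were called and 6% were lower in siDDX5 at an unadjusted p under 0.05. All 9 log2 fold changes were below 0, against 50.36% of all genes, but the sign of 5 (MYOD1, MYOG, MYF5, ID1 and ID3) changed when single libraries were left out, and that of ID1 also with length-scaled TPM. Their median was -0.20, against -0.0016 for all genes. Same-numbered libraries deviated from their group means together, so the fit was repeated with the replicate number as a block. There 2 of the 9, MEF2D and MEF2C, were called lower, against 1.45% of all genes called lower (2.59% in either direction). With DESeq2, 1 of the 9 was called, MEF2D, which was lower, against 1.66% called lower (2.99% in either direction) of the 10795 genes to which it gave an adjusted p. The groups did not overlap for 2 of the 9, MEF2D and TCF12, with siDDX5 below control in both. Of all genes 18.1% had groups without overlap, and 9.22% lay lower in every siDDX5 library. MYF5, MEF2C, MEF2D and TCF12 were lower in all 3 pairs of same-numbered libraries, as were 21.1% of all genes. The libraries are biological replicates according to the design text, which says no more of how they were grown, so the p-values measure the spread between these samples. In RNA from whole cultures, fewer cells with a transcript and less of it per cell cannot be told apart.

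**Figure D2:**
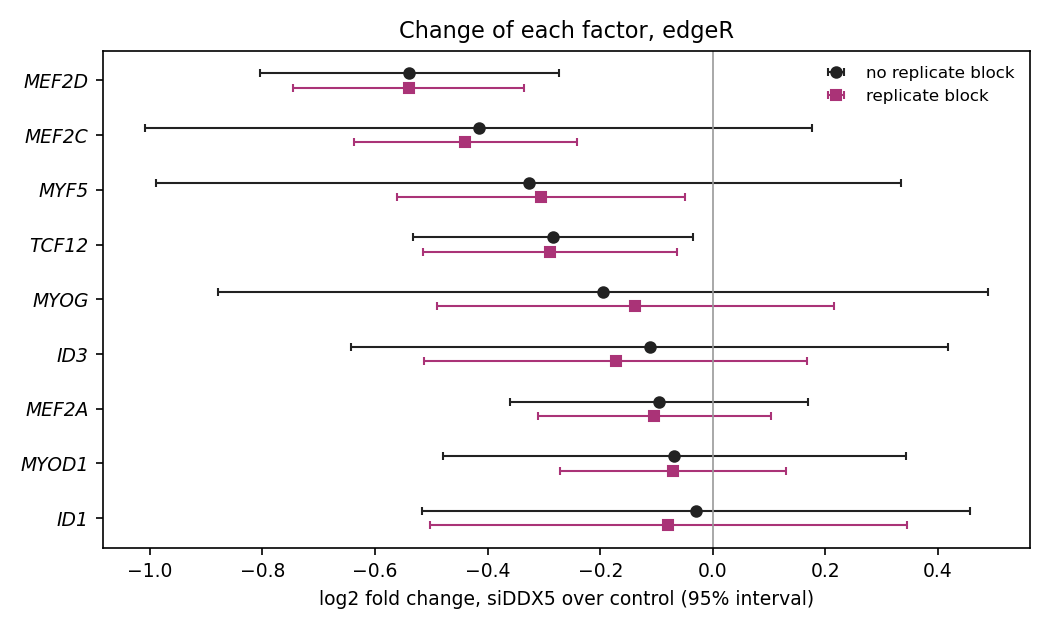
Log2 fold change (siDDX5 over control) of the 9 tested genes with its 95% confidence interval, from edgeR without (black circles) and with (purple squares) the replicate number as a block. The intervals of MEF2D and TCF12 lie wholly below 0 in both fits.

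MYOD1 is the factor that commits cells to the muscle lineage and can turn other cell types into muscle. It is encoded on chromosome 11 (17719568 to 17722131, plus strand) and has 1 transcript in the tables. MYOD1 stood at 205.9, 222.7 and 149.8 CPM in control replicates 1 to 3 and at 179.2, 225.6 and 146.9 CPM in siDDX5 replicates 1 to 3. The groups overlapped almost completely, and replicate 3 was the lowest library in each. The log2 fold change was -0.068 (SE 0.184, adjusted p = 0.92, edgeR), and the interval from -0.48 to 0.34 holds both directions. With the replicate block the interval narrowed to between -0.27 and 0.13.

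MYOG, or myogenin, acts after MYOD1 and drives the fusion and terminal differentiation of myoblasts. The gene lies on chromosome 1 (203083132 to 203086036, minus strand). It varied more between replicates than MYOD1, with 199.2, 78.7 and 130.5 CPM in control and 123.6, 83.4 and 149.8 CPM in siDDX5 replicates 1 to 3. Replicate 2 was the lowest library of both groups. MYOG was lower in siDDX5 for replicate 1 and higher for replicates 2 and 3, with log2 ratios of -0.69, 0.08 and 0.20. The fitted log2 fold change was -0.20 (SE 0.31, adjusted p = 0.85, edgeR), and without control replicate 1 it was 0.19.

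MYF5 and MYF6 are neighbours on chromosome 12 (80716912 to 80719673 and 80707498 to 80709474, both on the plus strand). MYF5 acts beside MYOD1 in early myoblasts, and MYF6, also known as MRF4, is mostly a factor of mature fibres. MYF5 stood at 27.8, 17.2 and 12.8 CPM in control and at 20.1, 15.3 and 10.7 CPM in siDDX5 replicates 1 to 3. Both groups ran in the same order of replicates, and each siDDX5 library lay below its same-numbered control by 0.47, 0.17 and 0.26 on the log2 scale. The log2 fold change was -0.33 (SE 0.30, adjusted p = 0.72, edgeR), with an adjusted p of 0.17 in edgeR with the replicate block. Without control replicate 1 it was 0.043. MYF6 had 0, 0 and 1 estimated counts in control and 3, 0 and 2 in siDDX5 libraries, all at or under the floor of 3 counts, so no fold is given.

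MEF2D had the smallest p of the 9 tested factors in both fits. It encodes a MEF2 protein found in many tissues, and one of its splice forms is known to promote late muscle differentiation. The gene lies on chromosome 1 (156463727 to 156500828, minus strand). It stood at 43.4, 38.5 and 38.5 CPM in control and at 30.3, 26.4 and 26.2 CPM in siDDX5 replicates 1 to 3. Every siDDX5 library lay below every control library, and the 3 pairs differed by nearly the same amount, with log2 ratios of -0.52, -0.55 and -0.56. The log2 fold change was -0.54 (SE 0.12), which is 1.45-fold lower, with an adjusted p of 0.12 (edgeR). In edgeR with the replicate block the estimate was again -0.54 and the adjusted p 0.018, and with DESeq2 it was -0.53 with an adjusted p of 0.0082. In TPM, where the lengths of the transcripts count, the group means of 13.3 and 7.30 gave a larger log2 ratio of -0.86. These means include MEF2D-207, a short fragment with few counts, at 2.32 TPM in control and 0.549 TPM in siDDX5 libraries.

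MEF2C is the MEF2 gene most tied to muscle, nerve and heart development, and it is a known target of the myogenic factors. It spans chromosome 5 from 88717117 to 88904257 on the minus strand and has 56 transcripts in the tables. The control libraries held 91.2, 63.5 and 111.7 CPM and the siDDX5 libraries 64.8, 43.6 and 91.5 CPM. The groups overlapped because replicate 2 was low and replicate 3 high in both, but each pair was lower in siDDX5, by 0.49, 0.54 and 0.29 on the log2 scale. Without the block the log2 fold change was -0.42 (SE 0.26, adjusted p = 0.59, edgeR). With the replicate block it was -0.44 (SE 0.088), 1.36-fold lower, with an adjusted p of 0.037 in edgeR.

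MEF2A is broadly expressed and lies on chromosome 15 (99565417 to 99716466, plus strand). It stood at 103.3, 103.7 and 97.6 CPM in control and at 109.6, 90.0 and 85.3 CPM in siDDX5 replicates 1 to 3. The highest library was a siDDX5 library and so were the lowest, so the groups overlapped. The log2 fold change was -0.096 (SE 0.12, adjusted p = 0.80, edgeR) with an interval from -0.36 to 0.17. It was -0.27 with length-scaled TPM and -0.32 with limma-trend on log2(TPM + 1), neither called (adjusted p = 0.57 and 0.64), and -0.21 without siDDX5 replicate 1 and -0.017 without siDDX5 replicate 3 (edgeR). Whether MEF2A and MEF2D differed in their response was not tested.

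TCF12, the E protein partner, lies on the same chromosome (56918623 to 57299281, plus strand). It stood at 268.8, 280.2 and 264.5 CPM in control and at 251.5, 200.9 and 215.9 CPM in siDDX5 replicates 1 to 3. The controls lay close together, and the siDDX5 libraries lay below all of them by differing amounts, with pair log2 ratios of -0.10, -0.48 and -0.29. The log2 fold change was -0.28 (SE 0.11, interval from -0.53 to -0.034), or 1.22-fold lower, at an unadjusted p of 0.030 and an adjusted p of 0.38 (edgeR). The call was not reached with the replicate block either, where the adjusted p was 0.15 in edgeR.

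ID1 and ID3, the inhibitors of E protein dimers, shared the order of their siDDX5 libraries. ID1 lies on chromosome 20 (31605283 to 31606515, plus strand) and ID3 on chromosome 1 (23557918 to 23559794, minus strand). ID1 stood at 57.2, 47.8 and 47.7 CPM in control and at 36.4, 70.4 and 43.0 CPM in siDDX5 replicates 1 to 3. ID3 stood at 58.7, 61.4 and 48.5 CPM in control and at 38.9, 76.3 and 40.8 CPM in siDDX5 libraries. For both genes siDDX5 replicate 2 was the highest of the 6 libraries and siDDX5 replicate 1 the lowest. The pair log2 ratios were -0.65, 0.56 and -0.15 for ID1 and -0.59, 0.31 and -0.25 for ID3. The fitted log2 fold changes were -0.029 for ID1 (SE 0.22, adjusted p = 0.98, edgeR) and -0.11 for ID3 (SE 0.24, adjusted p = 0.90, edgeR). Without siDDX5 replicate 2 they were -0.36 (adjusted p = 0.51, edgeR) and -0.50 (adjusted p = 0.36, edgeR).

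The 10 genes have 116 transcripts in the tables, of which 42 passed the filter on low counts. In edgeR 0 of the 42 were called and 2 had an unadjusted p under 0.05, where of all 61666 transcripts 0% were called and 7.08% had such a p. With the replicate block 0 were called and 5 had an unadjusted p under 0.05, against 7.96% of all transcripts. DESeq2 gave 25 of the 42 an adjusted p and called 1, MEF2D-202, against 3% of the 26938 transcripts with one. The TPM of the groups did not overlap for 9 of the 42, against 14.3% of all transcripts. The relative use of transcripts within a gene could be tested for 6 of the 10 (diffSpliceDGE in edgeR), and 0 of the 6 were called or had an unadjusted p under 0.05, against 1.62% of all genes called. With the block 0 of the 6 were called, against 1.21%, and MEF2C alone had an unadjusted p under 0.05 (0.031, adjusted p = 0.64).

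The 2 transcripts with an unadjusted p under 0.05 belong to MEF2D and TCF12. MEF2D-202, a coding transcript of 3194 bases that skips the 21-base exon, was listed at 4.32, 3.48 and 4.04 TPM in control and at 2.42, 1.01 and 1.64 TPM in siDDX5 replicates 1 to 3. Its log2 fold change on counts was -1.19 (SE 0.30, adjusted p = 0.52, edgeR), and no siDDX5 library reached a control library. MEF2D-201, of 5912 bases and with the exon, stood at 4.00, 3.32 and 2.89 TPM in control and at 3.72, 2.44 and 2.77 TPM in siDDX5 libraries, which overlapped. MEF2D-204, of 5598 bases and without the exon, stood at 1.83, 2.08 and 2.42 against 1.07, 1.70 and 1.45 TPM. A fragment of 526 bases with a retained intron, MEF2D-207, stood at 2.36, 2.28 and 2.31 against 0, 0.829 and 0.818 TPM. MEF2D-202, MEF2D-204 and MEF2D-207 are among the 9 transcripts without overlap.

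The second of these transcripts was TCF12-206, of 1809 bases, which holds the 72-base exon. It was listed at 33.4, 29.7 and 31.2 TPM in control and at 26.5, 11.5 and 15.1 TPM in siDDX5 libraries, with a log2 fold change on counts of -0.78 (SE 0.26, adjusted p = 0.64, edgeR). TCF12-213, of 1544 bases and also with the exon, stood at 9.76, 10.65 and 9.30 against 8.14, 1.86 and 6.78 TPM. TCF12-203, the most abundant form, which skips the exon and has 3956 bases, overlapped between the groups at 63.7, 71.8 and 61.9 against 65.9, 48.8 and 60.3 TPM. TCF12-201, of 6061 bases and without the exon, overlapped as well, at 21.2, 23.1 and 21.7 against 23.2, 18.8 and 15.4 TPM. Of the less abundant forms that skip the exon, TCF12-207, of 4076 bases, stood at 6.90, 4.72 and 11.65 against 2.87, 2.4e-07 and 4.49 TPM. TCF12-205, of 1598 bases, stood at 2.75, 1.41 and 1.65 against 1.38, 0 and 0 TPM. Neither overlapped, with log2 fold changes on counts of -1.63 (SE 1.20, adjusted p = 0.85, edgeR) and -2.06 (SE 1.31, adjusted p = 0.82, edgeR).

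The leading transcripts of the other MEF2 genes, of ID1 and of ID3 overlapped between the groups. MEF2A-201 was listed at 17.1, 16.3 and 21.3 TPM in control and at 21.2, 13.3 and 14.5 TPM in siDDX5 replicates 1 to 3, and MEF2A-202 at 7.33, 7.74 and 7.59 against 9.06, 6.003 and 7.14 TPM. MEF2C-213 was listed at 11.7, 6.58 and 5.27 against 6.95, 2.85 and 3.41 TPM, lower in each pair. MEF2C-202 was listed at 5.68, 4.26 and 10.23 against 5.28, 3.14 and 10.06 TPM, and MEF2C-217 at 8.61, 5.30 and 7.30 against 6.12, 2.74 and 6.92 TPM. MEF2C-256, a fragment of 100 bases, was at 5.33, 11.3 and 9.64 TPM in control and at 8.16, 0 and 0 TPM in siDDX5 libraries. These values rest on 2, 3.87 and 3.17 against 2.58, 0 and 0 estimated counts, near or under the floor of 3 counts. For ID1-202 siDDX5 replicate 2 was the highest library (76.2 TPM, against 44.8 and 51.0 TPM in the other siDDX5 libraries and 48.2 to 56.1 TPM in control). ID1-201 stood at 28.5, 24.5 and 20.9 TPM in control and at 14.8, 23.8 and 17.4 TPM in siDDX5 libraries. ID3-201 stood at 46.8, 47.1 and 39.5 TPM in control and at 32.6, 54.7 and 32.9 TPM in siDDX5 libraries, and its second copy, ENST00000634790.2, had the same values.

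**Figure D3:**
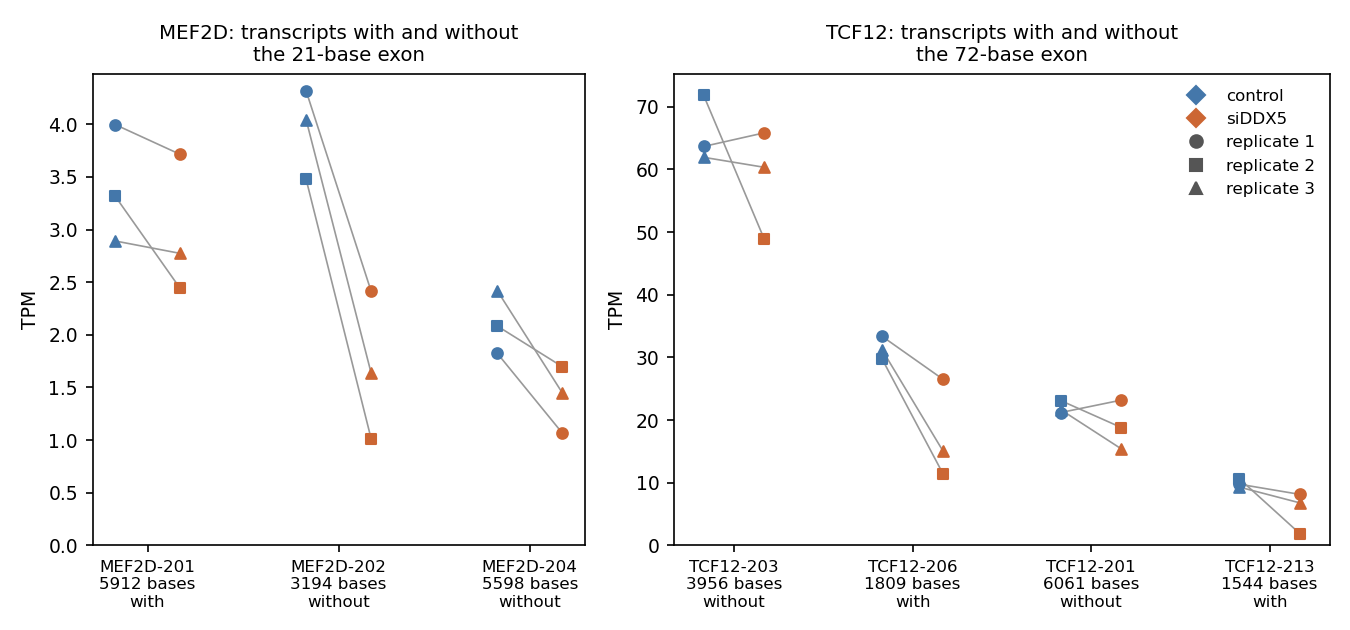
TPM of the leading coding transcripts of MEF2D (left) and TCF12 (right) in each library, labelled with their length in bases and whether they hold the 21-base or the 72-base exon. Control libraries are blue, siDDX5 libraries orange, and lines join libraries of the same replicate number. MEF2D-202 without the 21-base exon and both TCF12 transcripts with the 72-base exon have their 3 siDDX5 points below their 3 control points.

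For each alternative coding exon, transcripts with it were set against those that skip it or hold its partner exon. The share is the TPM on transcripts with the exon over the TPM on both forms. Other transcripts of the gene were left out, so the percentages below are not of its whole TPM. Shares were compared with an exact two-sided permutation test over 3 against 3 libraries, which cannot give a p below 0.1. Of the 9 shares tested, 2 did not overlap between the groups. Without any group difference, 3 and 3 libraries separate fully with a probability of 0.1 for each share. Exon shares of other genes were not computed, and of all transcripts 14.3% had TPM without overlap. The 21-base exon of MEF2D was held by 39.4%, 37.4% and 30.9% of the transcripts in control and by 51.6%, 47.4% and 47.3% in siDDX5 replicates 1 to 3. The mean share was 35.9% ± 4.44 in control and 48.8% ± 2.46 in siDDX5 libraries (SD, n = 3 each), a difference of 12.9 percentage points (exact permutation p = 0.1, adjusted over the 9 shares 0.45). The share was higher by 12.2, 10 and 16.4 points in the 3 pairs. Behind it, the transcripts with the exon went from 3.40 to 2.98 TPM and those without it from 6.06 ± 0.457 to 3.10 ± 0.385 TPM. MEF2D-201 is the only transcript counted as holding this exon. Of the whole TPM of MEF2D it had a mean of 25.55% in control and 40.5% in siDDX5 libraries. That whole includes the short fragment MEF2D-207, with a mean of 17.45% in control and 8.11% in siDDX5 libraries. MEF2D-207 rests on few estimated counts, 15.8, 12.4 and 13.9 in control and 0, 4.33 and 3.71 in siDDX5 libraries. The tables list a later version of MEF2D-201 than the annotation, so the exon was read from the earlier version.

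The 72-base exon of TCF12 was held by 31.8%, 28.99% and 29.7% of the transcripts in control and by 27.8%, 20.5% and 21.8% in siDDX5 replicates 1 to 3. The means were 30.2% ± 1.47 and 23.4% ± 3.94 (SD, n = 3 each), a difference of -6.82 points (exact permutation p = 0.1, adjusted 0.45). Transcripts with the exon went from 43.1 ± 2.12 to 26.1 ± 10.1 TPM, and those without it from 99.8 ± 2.85 to 83.2 ± 13.6 TPM. This difference rests on the short transcripts with the exon, TCF12-206 and TCF12-213. When only transcripts of at least 3000 bases were kept, an alternative chosen after seeing the data, the difference was 0.65 points in the other direction, because TCF12-204 was then the form with the exon, at 0.388 to 0.704 TPM in control and 0.797 to 1.25 TPM in siDDX5 libraries. For MEF2D this limit removed no transcript of the share.

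The other 7 shares overlapped between the groups, and each had an adjusted value of 0.9. The β exon of MEF2A was held by 11.4% ± 6.15 of transcripts in control and 12.1% ± 9.57 in siDDX5 libraries (SD, n = 3 each; exact permutation p = 0.9). The β exon of MEF2C was held by 17.2% ± 7.73 and 18.5% ± 1.03 (SD, n = 3 each; exact permutation p = 0.7). Each MEF2 gene also has a pair of exons of which a transcript holds one or the other, and in MEF2D the downstream member of the pair is known as the form made in differentiating muscle. The upstream exon had 74.5% in control and 72.7% in siDDX5 libraries for MEF2A, 79.6% and 77.4% for MEF2C, and 77.6% and 75.8% for MEF2D (exact permutation p = 0.6, 0.7 and 0.9). The upstream exon was the more abundant in all 3 genes and both groups. A 204-base exon of MEF2A was held by 91.3% and 90.6%, and a 140-base exon of TCF12 by 97.5% and 98.1% (exact permutation p = 0.9 and 0.3). A start exon inside the gene, with 69 coding bases, carried 74.7% ± 2.199 of the counted TCF12 transcripts in control and 75.2% ± 1.76 in siDDX5 libraries (SD, n = 3 each). This is a description without a test.

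**Figure D4:**
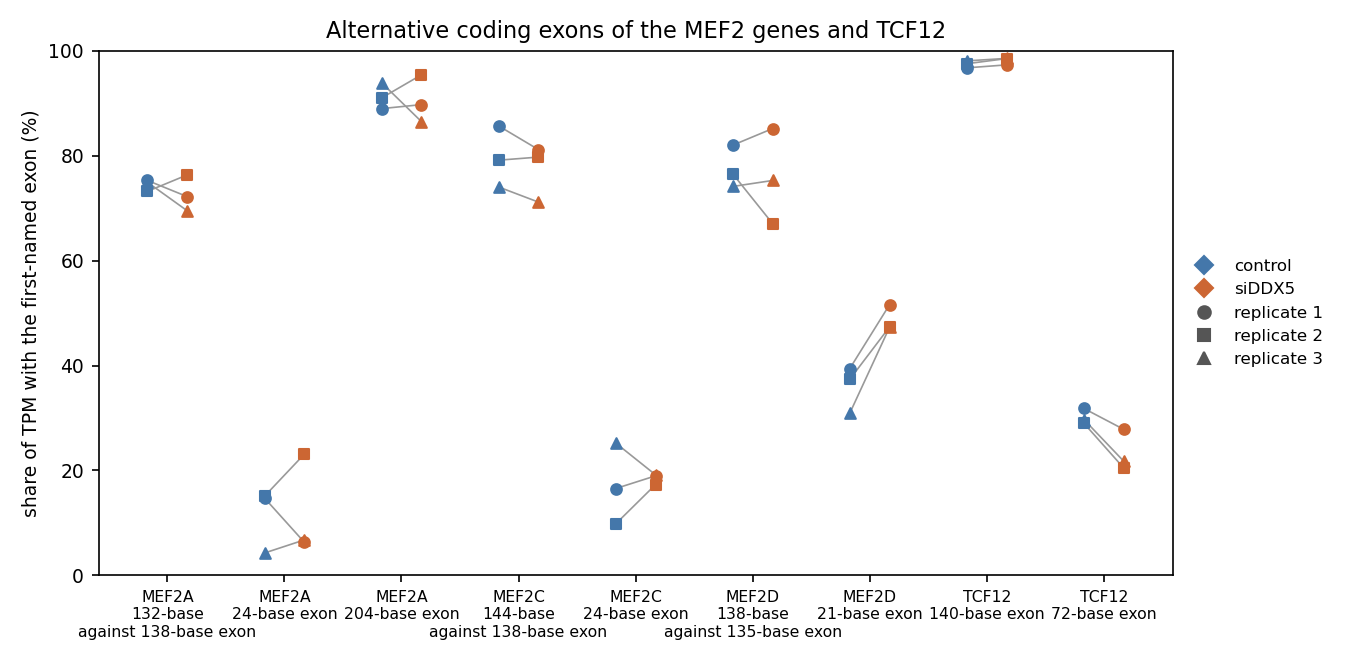
Share of TPM (percent) on transcripts with the first-named exon, for 9 alternative exons or exon pairs of MEF2A, MEF2C, MEF2D and TCF12, in each library. The share is taken among the transcripts that hold the exon, skip it or hold its partner. Control libraries are blue, siDDX5 libraries orange, and lines join libraries of the same replicate number. The MEF2D 21-base exon lies at 30.9% to 39.4% in control and 47.3% to 51.6% in siDDX5 libraries, and the TCF12 72-base exon is the other share without overlap.

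The genes around these factors were read from 5 lists, by count and median beside the median of all genes (-0.0016). Of all genes 0.164% were called (0.112% lower) and 11.4% had an unadjusted p under 0.05 (6% lower with such a p), and with the replicate block 2.59% were called (1.45% lower). Of 14 tested E proteins and other bHLH or E-box factors 0 were called in edgeR (3 at an unadjusted p under 0.05, 1 higher and 2 lower), with a median log2 fold change of 0.081. The smallest p values were those of HEYL, a Notch target gene, at 71.6 ± 14.3 CPM in control and 54.1 ± 7.30 CPM in siDDX5 libraries (SD, n = 3 each; log2 fold change -0.40, adjusted p = 0.38, edgeR), and ID2. ID2, another inhibitor of E proteins, had 36.0 ± 2.49 and 46.6 ± 10 CPM (log2 fold change 0.37, adjusted p = 0.42, edgeR). Of 17 tested factors upstream of the myogenic factors 0 were called (1 at an unadjusted p under 0.05), with a median of -0.16. There SIX5, a homeobox gene of the family that turns on myogenic genes, stood at 3.58, 3.10 and 3.46 CPM in control and at 1.43, 1.73 and 1.54 CPM in siDDX5 replicates (log2 fold change -1.11, adjusted p = 0.085 without and 0.034 with the replicate block, edgeR). EYA3, a cofactor gene of that family, had a log2 fold change of 0.26 (adjusted p = 0.48, edgeR).

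Of 22 tested partners and regulators of MEF2, 0 were called (7 at an unadjusted p under 0.05, 1 higher and 6 lower), with a median of -0.19. NFATC1, a calcineurin-dependent factor that works beside MEF2, averaged 11.1 ± 0.695 CPM in the controls and 7.68 ± 0.239 CPM in siDDX5 libraries (SD, n = 3 each; log2 fold change -0.53, adjusted p = 0.22, edgeR). PRKD1, a kinase that frees MEF2 from class II histone deacetylases, had 25.4 ± 2.74 and 18.7 ± 1.19 CPM (log2 fold change -0.44, adjusted p = 0.25, edgeR). For both genes every siDDX5 library lay below every control library, as for 9.22% of all genes. Both were picked for their small p. With the block 1 gene of this list was called lower, CABIN1, a repressor of MEF2 (log2 fold change -0.42, adjusted p = 0.036, edgeR).

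Of 23 tested coactivators and chromatin factors of MYOD1, 1 was called, DDX5 itself, which was lower (7 at an unadjusted p under 0.05, 2 higher and 5 lower), with a median of -0.15. With the block CTCF and SMARCC2 were called lower as well. CTCF, the insulator protein gene, stood at 84.3, 84.3 and 83.2 CPM in control and at 59.7, 60.0 and 57.8 CPM in siDDX5 libraries (log2 fold change -0.50, adjusted p = 0.073 without and 0.014 with the block, edgeR). SMARCC2, a subunit of the SWI/SNF remodelling complex, had an adjusted p of 0.31 without and 0.049 with the block (log2 fold change -0.40, edgeR). Of 34 tested muscle genes with E boxes or MEF2 sites, 0 were called with or without the block (3 at an unadjusted p under 0.05 without it, 1 higher and 2 lower), and the median was 0.024. MUSK, the kinase of the neuromuscular junction, averaged 35.8 ± 1.59 CPM in the controls and 26.8 ± 4.07 CPM in siDDX5 libraries (log2 fold change -0.42, adjusted p = 0.29, edgeR). MYL1, a myosin light chain gene, had 4.203 ± 1.19 and 6.62 ± 0.685 CPM (log2 fold change 0.65, adjusted p = 0.32, edgeR). Its groups did not overlap, nor did those of MUSK, as for 18.1% of all genes, and the 2 lay in opposite directions. MYL1 and MUSK were picked for their small p.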

How the data were processed

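The authors deposited 1 table per library that gives every transcript its estimated count and its TPM. Both columns are the authors' own, and the layout is that of kallisto per the file headers. Kallisto 0.46.0, cutadapt 1.11, bcl2fastq 2.20, FastQC 0.11.8 and the build GRCh38 (hg38) are named, with no role, in the submitters' processing notes. Kallisto divides reads shared by transcripts among them, so values of single transcripts carry an error that the tables do not hold. TPM is scaled per effective length and library, and it weighs short transcripts heavily.

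Transcripts were joined to genes with GENCODE release 29. Of 188753 transcripts, 169797 had an identifier on the primary assembly, 15322 were joined by gene symbol, 890 by position in the table, and 2744 were left out. The joined genes held 99.59% to 99.63% of the estimated counts. Coordinates are GRCh38, counted from 1. Exons were read from the same annotation.

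Estimated counts were summed per gene, rounded to whole numbers and tested in edgeR 4.0.16 under R 4.3.3 (filterByExpr, TMM scaling, glmQLFTest), without covariates. P-values were adjusted by the method of Benjamini and Hochberg over all genes. CPM values carry the TMM factors. Alternatives used DESeq2 1.42.0, limma 3.58.1 on log2(TPM + 1) and log2(TPM + 0.1) with a mean of at least 1 TPM, other filters, and each library left out. Single transcripts were tested in the same way and their usage with diffSpliceDGE. An exon share is the TPM on transcripts with the exon over the TPM on those with or without it, where both forms reached a mean of 1 TPM. Exact permutation tests used SciPy 1.17.1. Libraries with the same number were taken as pairs because their deviations from the group means correlated for each of the 3 numbers (0.21, 0.27 and 0.58 over 15223 genes), and the labels do not say that they were made together. The biological coefficient of variation was 15.7% without and 10.2% with the block.

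On simulated counts with 200 changed genes among 15252, edgeR recovered 97% with 12 false calls and DESeq2 96.5% with 23. Changes were planted only in genes or transcripts averaging at least 50 counts. Each was larger than the 1.45-fold of MEF2D, the largest among the 9 factors in edgeR. The shares recovered therefore do not give the power to call changes as small as those of the factors. With replicate effects added (15285 genes), edgeR recovered 52.5% without the block (0 false calls) and 92.5% with it (5 false calls). The size of these effects was fixed and not taken from the 6 libraries, so the loss without the block may differ here. On simulated transcripts, diffSpliceDGE recovered 48.9% of 184 genes with 10 false calls. Whether this share holds for the transcripts of the 6 libraries was not tested, so it does not give the power of the usage test there.

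All 10 genes are named, as are, from each list, the called genes (at most 3) or else the 2 of smallest p, transcripts with at least 10% of a gene's TPM, and the 3 genes most correlated with MYOD1 and with MYOG. CABIN1, CTCF and SMARCC2 and the transcripts MEF2C-217, TCF12-204, TCF12-205, TCF12-207 and TCF12-213 were named after their values were seen. The genes and lists were chosen with earlier results of these data known.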

Additional observations from a re-analysis of the deposited data

How the results depend on the processing

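Of the 9 factors tested, 0 were called by edgeR without the replicate block (2 at an unadjusted p under 0.05). With the replicate block 2 were called and with DESeq2 1. The block changed no other call among the 9. Without the block, 0 were called with other size factors, no filter or a filter at 50 counts, length-scaled TPM, limma-trend or the primary assembly alone. With each library left out in turn, 0 were called in edgeR, also without the block. The fits with the block and with DESeq2 were not repeated with a library left out. The log2 fold change of MEF2D lay between -0.86 and -0.53 under the settings with all libraries and between -0.61 and -0.47 with a library left out, and that of TCF12 between -0.38 and -0.21 with a library left out. For 5 genes that were never called the sign changed when single libraries were left out, with ranges of -0.24 to 0.080 for MYOD1, -0.47 to 0.19 for MYOG, -0.57 to 0.043 for MYF5, -0.36 to 0.16 for ID1 and -0.50 to 0.061 for ID3. ID1 was at 0.047 with length-scaled TPM. MEF2C ranged from -0.70 to -0.19, the latter without siDDX5 replicate 2, and MEF2A from -0.33 to -0.089 with all libraries and from -0.21 to -0.017 with a library left out.

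Of the 110 genes tested over the pathway lists 1 was called, the knocked-down gene DDX5 itself, against 0.164% of all genes. The count was 5 with the replicate block (2.59% of all genes), 2 with DESeq2 (of 96 with an adjusted p there, against 2.99% of all genes with one), 0 with length-scaled TPM, 0 with limma-trend at either pseudocount (1 or 0.1), and 0 to 1 with a library left out. It was 0 without control replicate 1, siDDX5 replicate 1 or siDDX5 replicate 2. DDX5 was among the genes called in every setting with a count above 0. With DESeq2 1 of the 25 transcripts with an adjusted p was called, against 3% of all such transcripts and 0 of 42 in edgeR, and the count of genes with changed usage was 0 throughout. The control mean of ID3 was 48.9 TPM on the primary assembly alone. The log2 ratio of MEF2D was -0.54 from CPM and -0.86 from TPM. The causes were not tested.

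The MEF2D 21-base share differed by 10.4 to 14.6 percentage points with a library left out. The TCF12 72-base difference lay between -9.06 and -5.37 points with a library left out, and was 0.65 with transcripts of at least 3000 bases. Of the 7 smaller differences 5 changed sign. With a library left out these ranged from -4.83 to 3.57 for the MEF2A 24-base exon, -3.18 to 1.28 for the MEF2A 204-base exon, -5.06 to 0.83 for the MEF2C exon pair, -2.41 to 5.30 for the MEF2C 24-base exon and -6.39 to 2.66 for the MEF2D exon pair. From estimated counts in place of TPM the MEF2C 24-base difference was -1.18 and that of the MEF2D pair 0.34, and with transcripts of at least 3000 bases the MEF2C 24-base difference was -1.93. The MEF2A exon pair (-3.62 to -0.20 with a library left out) and the TCF12 140-base exon (0.32 to 1.08) kept their sign. No share could be called at 0.05, since the exact test over 3 against 3 libraries cannot go below 0.1.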

Other observations

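The genes whose level ran most like that of MYOD1 over the 6 libraries were MAPKAP1 (Pearson r of log2 CPM 0.995), ATIC (0.994) and SLC5A6 (0.993), and those most like MYOG were SOX13 (0.987), LRIG3 (0.986) and AC006453.2 (0.985). They were picked as the highest of the 9796 genes averaging 10 CPM or more, and the points share their libraries and depth, so these values describe and carry no p. SOX13 stood at 42.3, 23.3 and 31.8 CPM in control and at 29.5, 21.6 and 33.6 CPM in siDDX5 replicates 1 to 3, so replicate 2 was the lowest library of both groups, as it was for MYOG.

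MEF2A had 2 retained-intron transcripts whose TPM differed widely between replicates. MEF2A-209, of 847 bases, was listed at 4.88, 14.2 and 4.13 TPM in control and at 11.3, 3.08 and 4.57 TPM in siDDX5 libraries. MEF2A-210, of 685 bases, was listed at 7.77, 1.25 and 6.76 against 0, 0 and 3.73 TPM.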
